A study of Mus musculus with 30 samples.

Results

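The genes named for the endothelium, 8 in number, were followed across the pilot single-cell data of a mouse arthritis model: Pecam1, Cdh5, Kdr, Cldn5, Selp, Icam2, Vcam1 and Fabp4. They were taken by name, through the Entrez gene numbers that the tables use, and all 8 were found among the 23013 gene rows. The data were 30 Seq-Well libraries (microwell capture of single cells with a molecular barcode on each transcript) from joint, blood, draining lymph node, lung, thymus, skin, limb muscle and spleen of 8 male DBA1/J mice. The 4 control mice, called healthy here (H3, H4, H6 and H7), were set against 4 mice with collagen-induced arthritis, or CIA (S1 and S2 with a score of 8, S6 with a score of 3 to 4 and S7 with a score of 3). The CIA mice had been injected intradermally with 100 µg of bovine type II collagen in complete Freund's adjuvant and boosted on day 20 with collagen in incomplete adjuvant, and by the study's methods the controls received PBS, so collagen and adjuvant cannot be told apart. Blood held mononuclear cells after red cell lysis, and joint, muscle, lung and skin were digested with collagenase after thawing, whereas spleen, thymus and lymph node were pressed through a strainer. Blood came from 4 healthy and 3 CIA mice (S2, S6 and S7), lymph node from 4 healthy and 3 CIA mice (S1, S2 and S7), and every other organ from 1 healthy mouse (H3 for joint, H6 otherwise) and the CIA mouse S1. No source used here says that libraries of 1 mouse and organ are more than repeat preparations, so they were added up, and p-values rest on mice.

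Endothelial cells line blood vessels and hold together through homophilic contacts at their borders. VE-cadherin (Cdh5) forms the adherens junction, claudin 5 (Cldn5) the tight junction, and PECAM1 (CD31) a further contact that migrating leukocytes also use, while VEGFR2 (Kdr) is the main receptor through which VEGF acts on these cells. Leukocytes first roll on P-selectin (Selp), which endothelial cells and platelets store in granules, and then arrest on ligands of leukocyte integrins, among them ICAM2 and the inducible VCAM1. FABP4 carries fatty acids inside capillary endothelial cells, adipocytes and macrophages. Several of these genes have other sources: PECAM1 and ICAM2 are also made by leukocytes and platelets, and VCAM1 by fibroblasts and other stromal cells. In inflamed joints the vessel wall is where circulating leukocytes enter the synovium.

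The values analysed were whole-number sums over each barcode and its nearest neighbours, called units here, and levels are given as UPM, the units of a gene after scaling a library's total to 1000000. They are levels of the 3′ ends of transcripts and are compared between libraries for 1 gene, not between genes. The libraries held 27 to 934 barcodes and 217494 to 7886790 units. In 19 libraries, all 9 of lymph node included, most of the rarest genes were missing, so that a gene is said only to be listed at 0. Of 8255 barcode sequences, 13 occurred in more than 1 library, and 0 were shared by 2 libraries of the same mouse and organ. The titles carry a suffix, CIA in 13 libraries and 2CIA in 17, whose meaning the labels do not give. Spleen, thymus, skin, muscle and lung each had suffix CIA for H6 and suffix 2CIA for S1, so suffix and disease state cannot be told apart there. Markers of the labelled tissue were checked, and the muscle library of H6 listed 2 of 5 muscle genes with a summed level of 60.6 UPM, against 5 of 5 and 3713 UPM in the muscle library of S1. The H6 library held 905 UPM of B cell markers and 87335 UPM of neutrophil markers. Fewer cells of a type and less RNA per cell cannot be told apart in these summed levels.

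Kdr, Cldn5 and Selp had no value above 0 outside digested joint, muscle and skin and have a promoter in the RefSeq table of GRCm38.p6. Their 250 bases before the transcription start are printed so that the genes of the junction, the VEGF receptor and the selectin can be compared. Capitals mark the letters CTTCC, the reverse complement of GGAAG, a form of the core that ETS factors bind. Other forms of that core were not searched and are not marked. The other 5 genes had no entry.
Kdr, chr5:75978456-75978705, minus strand: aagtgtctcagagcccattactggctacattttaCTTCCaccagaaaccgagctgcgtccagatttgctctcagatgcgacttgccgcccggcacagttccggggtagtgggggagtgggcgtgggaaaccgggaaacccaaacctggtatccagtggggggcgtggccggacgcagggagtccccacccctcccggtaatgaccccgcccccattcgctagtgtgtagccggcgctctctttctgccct
Cldn5, chr16:18776597-18776846, plus strand: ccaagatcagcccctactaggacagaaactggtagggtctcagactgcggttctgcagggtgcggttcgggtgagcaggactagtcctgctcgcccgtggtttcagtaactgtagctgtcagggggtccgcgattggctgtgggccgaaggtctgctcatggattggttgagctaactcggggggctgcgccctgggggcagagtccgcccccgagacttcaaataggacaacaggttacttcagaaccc
Selp, chr1:164115014-164115263, plus strand: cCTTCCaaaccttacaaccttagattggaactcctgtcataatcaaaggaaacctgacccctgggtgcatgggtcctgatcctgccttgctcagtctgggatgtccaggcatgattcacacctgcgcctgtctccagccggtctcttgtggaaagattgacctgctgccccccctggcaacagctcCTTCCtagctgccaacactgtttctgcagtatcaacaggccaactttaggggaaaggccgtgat
Both strands were searched for GGAAG and for AACAAT, a core that SOX factors bind. The Kdr promoter held 1 match of GGAAG, at bases 216 to 212 before the start, the Selp promoter held 2, at bases 64 to 60 and 249 to 245, and the Cldn5 promoter held 0. Of 32851 RefSeq promoters of the same length, 64.1% held GGAAG and 9.42% held AACAAT, which had no match in these 3 windows. No binding was measured in these samples.

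Across the 30 libraries the 8 genes fell into those listed in few libraries of digested tissue and those listed widely. Cdh5, Cldn5 and Selp were each above 0 in 4 libraries, all from digested organs, and Kdr in 1. Pecam1 was above 0 in 24 libraries, Icam2 in 16, Fabp4 in 12 and Vcam1 in 9. Of the 9 libraries of digested organs, 9 listed Fabp4 and 7 listed Vcam1. The joint library of S1 with suffix 2CIA listed all 8 genes, and the joint library of H3 listed 7. Blood of S7 and the 2CIA library of blood of H4 listed 0 of the 8.

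**Figure D1:**
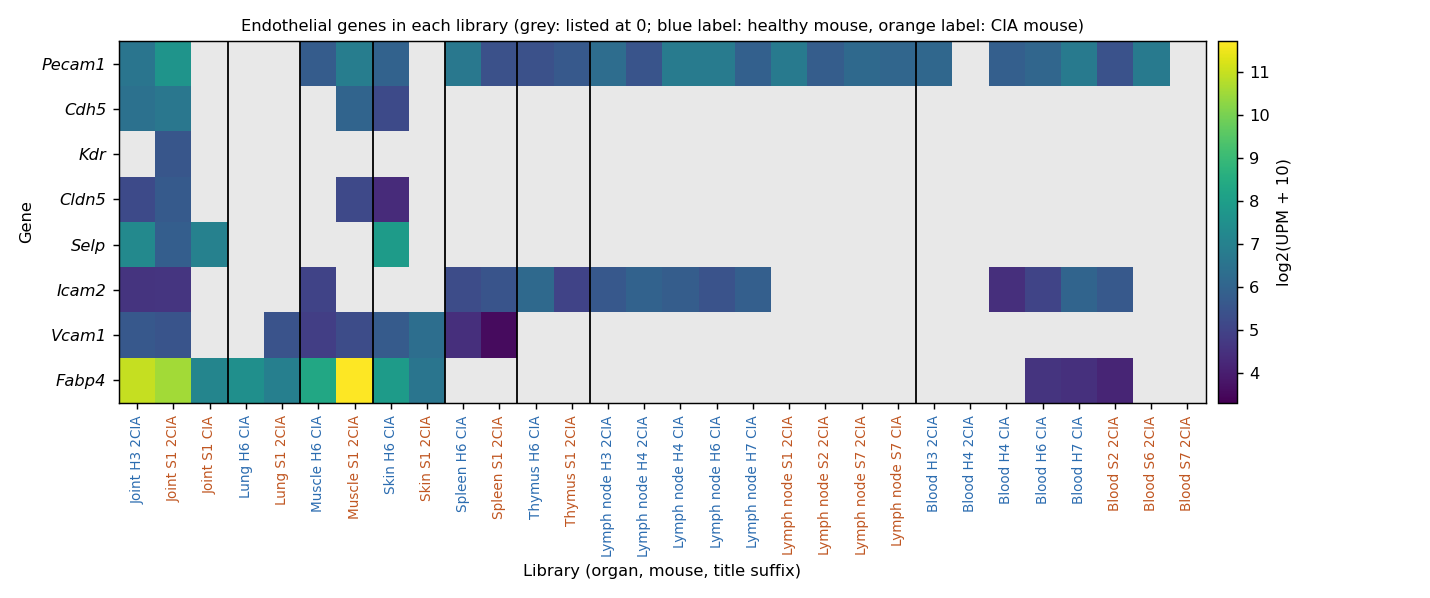
Level of each of the 8 endothelial genes in each of 30 libraries, as log2(UPM + 10), with organs separated by black lines. Grey cells are listed at 0; Cdh5, Kdr, Cldn5 and Selp have colour only in joint, muscle and skin, while Pecam1 has colour in 24 libraries.

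Among the junction genes, Cdh5 (chr8:104101625-104144511, plus strand, GRCm38, overlapped by the antisense transcript Gm29682) was at 76.3 UPM in the joint of H3 and at 90.8 UPM in the 2CIA joint library of S1. It was at 54.4 UPM in muscle of S1, at 26.8 UPM in skin of H6, and at 0 in every other library. The joint held 92.3% of all Cdh5 units in the series. Cldn5 (chr16:18776847-18778262, plus strand) was above 0 in the same 4 libraries, at 27.0 UPM in the joint of H3, 41.2 UPM in the 2CIA joint library of S1, 26 UPM in muscle of S1 and 10.4 UPM in skin of H6. Kdr (chr5:75932827-75978458, minus strand) had 37.3 UPM in the 2CIA joint library of S1 and was at 0 in the other 29 libraries, the joint of H3 included. The joint library of H3 was among those that lacked most of the rarest genes, and the 2CIA joint library of S1 was not, so the 0 of Kdr in H3 bounds no level. The second joint library of S1, with suffix CIA and 70 barcodes, listed none of Pecam1, Cdh5, Kdr and Cldn5.

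Pecam1 (chr11:106654217-106750628, minus strand) was listed far beyond these tissues. Its highest level was 190 UPM in the 2CIA joint library of S1, followed by 106 UPM in muscle of S1. Per mouse, it ran from 49.4 to 101 UPM in healthy lymph node and from 40.2 to 99.9 UPM in healthy blood. Spleen of H6 had 92.1 UPM and spleen of S1 32.2 UPM, and thymus had 32.5 UPM in H6 and 41.1 UPM in S1. Both lung libraries and the skin of S1 were at 0. Neither lung library listed Pecam1, Cdh5, Kdr or Cldn5, although the lung of H6 held 22096 UPM of 5 epithelial lung genes.

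Of the genes that bind leukocytes, Selp (chr1:164115264-164150026, plus strand, overlapped by the antisense transcript Gm16587 and the noncoding Gm16548) was highest in skin of H6, at 233 UPM. The joint of H3 had 144 UPM, the joint of S1 had 47.1 UPM in its 2CIA library and 118 UPM in its CIA library, and every other library was at 0. Vcam1 (chr3:116109949-116129688, minus strand, overlapped by the antisense transcript Gm43109) was at 71.2 UPM in skin of S1 and 42.7 UPM in skin of H6, and at 39.2 and 35.7 UPM in the joints of H3 and S1 (2CIA). Muscle had 19.2 UPM in H6 and 28.4 UPM in S1, lung 0 in H6 and 33.9 UPM in S1, and spleen 12.1 UPM in H6 and 1.73 UPM in S1. Whether the counting used strand is not given in the sources used here, so Cdh5, Selp and Vcam1 cannot be told apart from their antisense partners.

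Icam2 (chr11:106377656-106388075, minus strand) had its highest levels in lymphoid organs and blood, with 63.3 UPM in thymus of H6 and 55.5 UPM in blood of H7. The joint held 7.01% of its units, the lowest share of the 8 genes. Fabp4 (chr3:10204088-10208576, minus strand) reached 3314 UPM in muscle of S1, 1979 UPM in the joint of H3 and 1461 UPM in the 2CIA joint library of S1. It was at 315 UPM in muscle of H6, 231 and 85.2 UPM in skin of H6 and S1, 172 and 112 UPM in lung of H6 and S1, and 130 UPM in the CIA joint library of S1. Blood of S2, H6 and H7 had 8.09 to 14.0 UPM, and every spleen, thymus and lymph node library was at 0.

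To see which barcodes carried these levels, 12 genes typical of endothelial cells were counted as above 0 or not in each barcode: Cdh5, Kdr, Cldn5, Egfl7, Esam, Plvap, Tie1, Emcn, Ramp2, Cyyr1, Flt1 and Eng. Some of them, such as Eng and Flt1, are also made by macrophages or stromal cells, so the count marks a barcode and not a cell type. Of 8282 barcodes, 448 (5.41%) listed at least 3 of the 12. The 2CIA joint library of S1 had 302 of 606 (49.8%), the joint of H3 86 of 193 (44.6%), muscle of S1 24 of 54 (44.4%), skin of H6 23 of 158 (14.6%), skin of S1 9 of 150 (6.00%) and muscle of H6 4 of 421 (0.950%). No barcode of blood, lymph node, spleen, thymus or lung did so, nor did any of the CIA joint library of S1. Because smoothing gave many barcodes the same values, the 448 barcodes were 162 distinct profiles, with 105 in the joint of S1, 37 in the joint of H3, 5 in muscle of S1 and 1 in skin of S1. At the threshold, 118 barcodes listed exactly 3 markers and 141 listed exactly 2. Up to 12 markers were listed together in 1 barcode of the joint of S1, and up to 9 in the joint of H3 and muscle of S1.

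**Figure D2:**
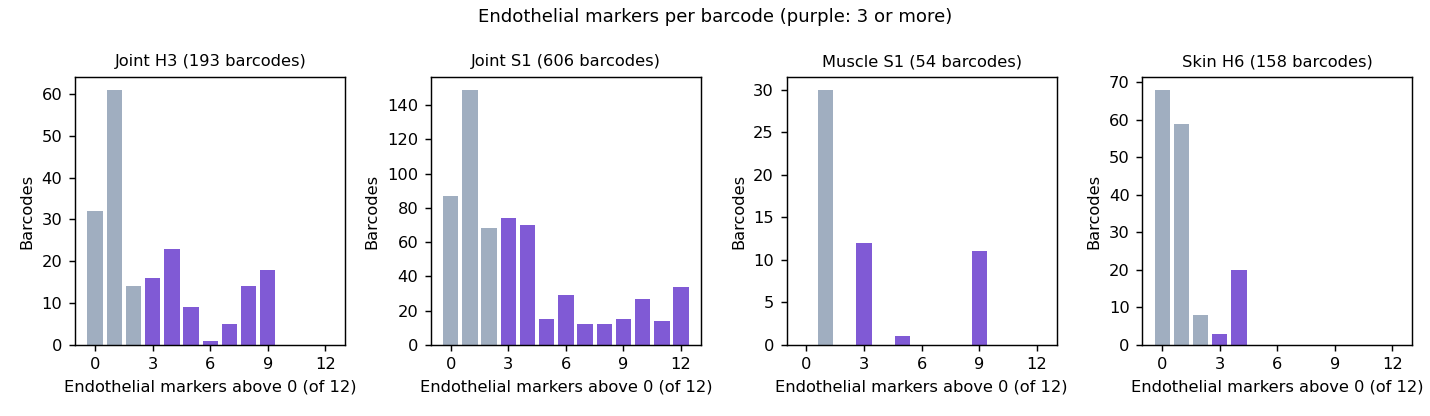
Number of barcodes (vertical axis) by the number of 12 endothelial markers above 0 (horizontal axis) in the joint of H3, the 2CIA joint library of S1, muscle of S1 and skin of H6. Purple bars are barcodes with 3 or more; both joint libraries and muscle of S1 reach 9 or more markers, and skin of H6 stops at 4.

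Cdh5, Kdr and Cldn5 are among the 12 markers, so their place in these barcodes follows from the rule, whereas the other 5 genes were not used by it. Pecam1 in the 2CIA joint library of S1 was at 25.2 UPM in barcodes with 0 to 2 markers, 72.5 UPM with 3 to 6 and 701 UPM with 7 or more. In the joint of H3 the same 3 classes had 17.0, 66.5 and 370 UPM of Pecam1. Pecam1 thus followed the marker count in both mice, and barcodes with 3 or more markers held 92.7% of its joint units but 32.0% of its units in the whole series.

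Fabp4 showed the same order in the joint, from 147 to 701 to 5317 UPM in the 2CIA joint library of S1 and from 309 to 1118 to 9427 UPM in the joint of H3. Barcodes with 3 or more markers held 93.2% of its joint units, 60.6% of its skin units and 45.9% of its muscle units. In muscle of S1 the order did not hold, with 1573 UPM at 0 to 2 markers, 445 UPM at 3 to 6 and 10228 UPM at 7 or more. These 3 classes held only 11, 3 and 2 distinct profiles. Selp was at 12.5, 32.0 and 143 UPM in the 3 classes of the joint of S1 and at 0, 9.85 and 861 UPM in those of the joint of H3. In skin of H6 it was at 76.6 UPM with 0 to 2 markers and 1229 UPM with 3 or more. Selp was thus highest in the class with the most markers in each of these 3 libraries.

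Icam2 and Vcam1 behaved differently in the 2 joints. Icam2 was at 0, 1.43 and 61.9 UPM across the 3 classes of the joint of S1, but in the joint of H3 it was at 21.8 UPM with 0 to 2 markers and at 0 in the other classes. Vcam1 was at 34.9, 33.9 and 39.4 UPM across the classes in S1 and at 17.8, 27.1 and 136 UPM in H3. Barcodes with 3 or more markers held 54.7% of the Vcam1 units of the joint, 17.9% of those of skin and 5.26% of those of muscle. These are values of 1 mouse a state, and barcodes of a library share values through smoothing, so no test was made.

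**Figure D3:**
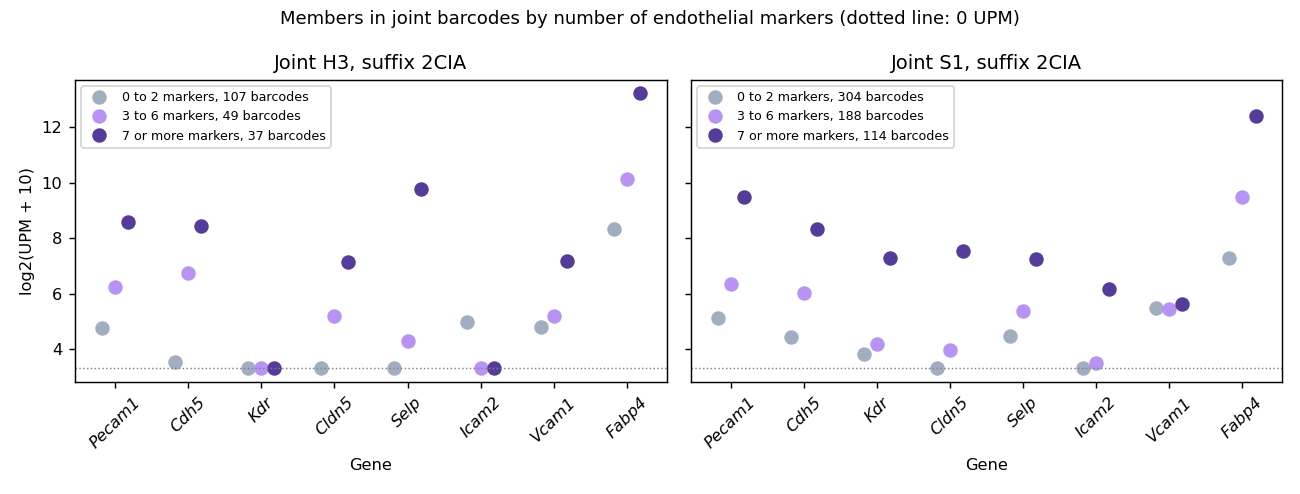
Level of each gene, as log2(UPM + 10), in joint barcodes with 0 to 2, 3 to 6 and 7 or more of 12 endothelial markers, in H3 (107, 49 and 37 barcodes) and in the 2CIA library of S1 (304, 188 and 114 barcodes). Pecam1, Selp and Fabp4 step up with the marker count in both libraries, and Vcam1 in H3, while Icam2 does so in S1 and is at 0 in both upper classes of H3; Cdh5, Kdr and Cldn5 are themselves markers.

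Within the 2CIA joint library of S1 some pairs of genes were listed in nearly the same barcodes and others were not. Icam2 was above 0 in 56 barcodes, and all 56 also listed Pecam1 and Cldn5. Of 108 barcodes with Cldn5, 107 listed Cdh5, and of 127 with Kdr, 110 did. Pecam1 and Cdh5 shared 174 barcodes, of 257 with Pecam1 and 263 with Cdh5. Of 159 barcodes with Selp, 93 listed Cdh5 and 34 listed Kdr, and of 135 with Vcam1, 73 listed Cdh5 and 39 listed Kdr. In the joint of H3, by contrast, 37 of 38 Selp barcodes listed both Pecam1 and Cdh5, and 0 of 25 Icam2 barcodes listed Cdh5, Cldn5 or Selp.

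Markers of other cell types were summed in the barcodes with and without each gene, over the whole list each time. For Pecam1, the endothelial list was 7.12 times higher where the gene was above 0 in the 2CIA joint library of S1 (1595 against 224 UPM), 6.61 times in the joint of H3, 11.6 times in muscle of S1 and 8.99 times in skin of H6. In lymph node 0 of the 12 endothelial markers were above 0 in any of the 9 libraries, and in blood 1 of 12 was, in 1 library of 8. That library was blood of S2, where 22 of 173 barcodes listed 1 marker and the 47 barcodes with Pecam1 listed none (0 against 16.5 UPM). All lymph node libraries lacked most of the rarest genes, so their zeros do not show that the markers were absent, and the part of leukocytes in the Pecam1 level was not tested. In muscle of S1 the 12 barcodes with Pecam1 also held 66303 UPM of neutrophil markers against 1329 UPM in the others, and 4853 UPM of pericyte and smooth muscle markers against 182 UPM. Of these 12 barcodes, 11 were in the class with 7 or more markers, which was only 2 distinct profiles. The library held 16 distinct profiles among 54 barcodes, so its ratios rest on few separate profiles.

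Selp was accompanied by endothelial markers in the joint of H3 (2475 against 339 UPM, 7.30 times) and in skin of H6 (442 against 41.5 UPM, 10.6 times). Its 44 barcodes in the CIA joint library of S1 were unlike these. They listed 0 of 12 endothelial markers and 0 of 9 platelet markers, but all 70 barcodes of this library (20 distinct profiles) listed 0 of the 12. The endothelial zeros therefore do not set the Selp barcodes apart. The library lacked most of the rarest genes, so neither set of zeros shows that the markers were absent. The Selp barcodes held 106931 UPM of neutrophil markers against 13702 UPM in the 26 other barcodes (7.80 times). Fibroblast markers were at 1335 against 36670 UPM in the same comparison. In the joint of H3 the neutrophil list went the other way, at 5122 UPM with Selp and 60437 UPM without.

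Vcam1 was accompanied by fibroblast collagens and proteoglycans in skin, at 33189 against 1794 UPM in S1 (18.5 times) and 8708 against 2170 UPM in H6 (4.01 times), and more weakly in the joint (1.81 times in S1 and 1.89 times in H3). Endothelial markers were also higher with Vcam1 in the joint, 3.52 times in S1 and 2.95 times in H3. In muscle of S1 its 12 barcodes held 12813 UPM of muscle genes against 895 UPM and 23287 UPM of macrophage genes against 6154 UPM, with 1 of 12 endothelial markers above 0. In muscle of H6 its 52 barcodes held 351 UPM of endothelial markers against 49.1 UPM. Vcam1 therefore stood beside different marker lists in different organs.

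Icam2 barcodes of the 2CIA joint library of S1 held 4270 UPM of endothelial markers against 385 UPM (11.1 times), and those of the joint of H3 held 76.4 against 777 UPM. In spleen of H6 all 167 barcodes listed 0 of 12 endothelial markers, and those with Icam2 held 10.4 times the macrophage markers of those without it (6365 against 612 UPM). In healthy lymph node libraries the T cell markers were 0.739 to 1.03 times and the B cell markers 0.705 to 1.27 times as high with Icam2 as without it. Fabp4 in lung of H6 was accompanied by 25007 UPM of macrophage markers against 15252 UPM (1.64 times) and in lung of S1 by 18348 against 14088 UPM (1.30 times), and lung of S1 listed 0 of 12 endothelial markers. Of 6 adipocyte markers, Adipoq, the adipocyte hormone, was above 0 with 3.81 UPM in the 2CIA joint library of S1 and at 0 in the other digested organs. Cidec, a lipid droplet protein, was the adipocyte marker listed in lung, at 352 UPM in H6 and 58.4 UPM in S1. The adipocyte list was at 474 UPM with Fabp4 against 69.4 UPM without it in lung of H6, and at 48.8 against 63.6 UPM in lung of S1.

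**Figure D4:**
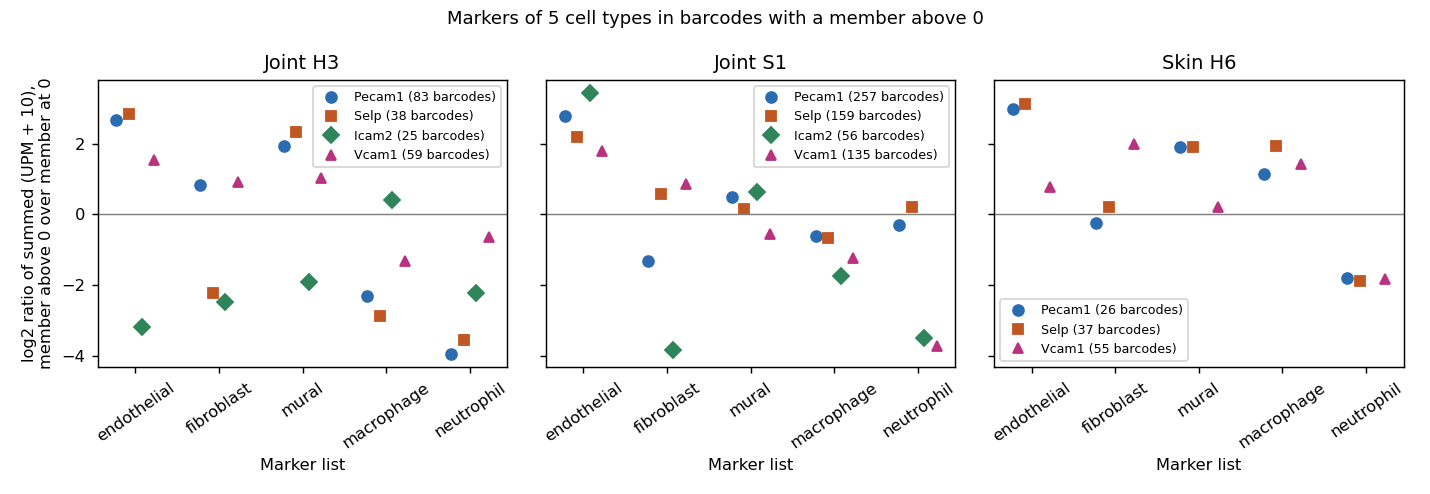
Log2 ratio of the summed level (UPM + 10) of 5 marker lists between barcodes with a gene above 0 and barcodes with it at 0, for Pecam1, Selp, Icam2 and Vcam1 in the joint of H3, the 2CIA joint library of S1 and skin of H6. Mural stands for pericyte and smooth muscle markers; points above the line are lists higher where the gene is listed, and endothelial markers lie above it for Pecam1, Selp and Vcam1 in each panel, and for Icam2 in S1 but not in H3.

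Blood and lymph node had several mice a state, so CIA could be tested there. In blood, Pecam1 was at 59.8, 40.2, 58.1 and 99.9 UPM in healthy H3, H4, H6 and H7 (64.5 ± 25.2, SD, n = 4) and at 32.9, 97.6 and 0 UPM in CIA S2, S6 and S7 (43.5 ± 49.7, n = 3). The groups overlapped, S6 lying beside the highest healthy mouse and S7 at 0. By limma on log2(UPM + 10) the difference was -1.0 ± 0.99 (SE) with a Benjamini-Hochberg adjusted p of 0.803, against a median of -0.10 over all genes. All 3 CIA blood libraries had suffix 2CIA and 3 of 5 healthy ones suffix CIA, and among libraries of suffix 2CIA alone the direction turned, with a difference of 0.44. Without S7 it was -0.074, and without S6 it was -1.79. Pecam1 was the 1 gene of the 8 over the filter of 25 UPM (mean over mice) in blood, and limma did not call it, its unadjusted p being 0.325. Of all 4416 genes over the filter, limma called 0.362% (16, all higher in CIA), and 403 had an unadjusted p under 0.05. Among the 16 were the neutrophil genes Retnlg (4.67 on the log2 scale), S100a8 (3.84) and S100a9 (3.00) and the myeloid lysozyme Lyz2 (2.71), and the summed neutrophil markers were at 1363 to 5345 UPM in healthy and 5235 to 73286 UPM in CIA blood libraries. T cell markers were at 337 to 1674 UPM in healthy and 227 to 339 UPM in CIA blood libraries, and the median difference of the 6 T cell genes was -2.40, with 0 called by limma. The part of either in the blood levels of Pecam1 and Icam2 was not tested.

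Icam2 in blood was at 0, 9.84, 22.9 and 55.5 UPM in H3, H4, H6 and H7 (22.1 ± 24.2, SD, n = 4), while S2 had 41.0 UPM and S6 and S7 had 0 (13.7 ± 23.7, n = 3). Fabp4 was at 14.0 and 12.3 UPM in H6 and H7, at 8.09 UPM in S2, and at 0 in the other 4 mice. Both overlapped between the states, and a two-sided exact permutation test over mice gave p = 0.571 for Icam2 (log2 difference -0.57) and p = 0.657 for Fabp4 (-0.32). Both directions turned with zeros set to the 5th percentile of a mouse's listed genes (0.60 and 0.79) and with suffix 2CIA alone (0.78 and 0.29). Of 15244 genes above 0 in blood, 3.65% had no overlap with CIA lower and 1.44% with CIA higher, and 1.69% reached an exact permutation p under 0.05 with CIA lower. The lowest level of any listed gene was 34.2 UPM in blood of S6 and 41.4 UPM in healthy blood of H3, so a level such as that of Icam2 in H6 would not have been detectable in either mouse. Cdh5, Kdr, Cldn5, Selp and Vcam1 were at 0 in blood of all 7 mice and were not tested.

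In lymph node, Pecam1 was at 70.1, 76.2, 101 and 49.4 UPM in H3, H4, H6 and H7 (74.1 ± 21.1, SD, n = 4) and at 99.5, 45 and 60.5 UPM in S1, S2 and S7 (68.3 ± 28.1, n = 3). The groups overlapped across nearly their whole range. The log2 difference was -0.13 ± 0.37 (SE, limma adjusted p = 0.999), beside a median of 0.05 over all genes. Again Pecam1 was the 1 gene of the 8 over the filter, and limma did not call it (unadjusted p = 0.736). Of 5081 genes limma called 0.0197%, which was 1 gene, the interferon-induced Ifi27l2a (2.55), named after its value was seen, and 201 had an unadjusted p under 0.05.

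Icam2 differed from Pecam1 in lymph node. It was at 40, 48.3, 33.7 and 47.4 UPM in H3, H4, H6 and H7 (42.4 ± 6.86, SD, n = 4) and at 0 in S1, S2 and S7, both libraries of S7 included. The groups did not overlap, and the mean log2(UPM + 10) was 5.70 in healthy and 3.32 in CIA mice, a difference of -2.38 with p = 0.0286 in the two-sided exact permutation test, the smallest p that 35 splits of 7 mice allow. Of all 11649 genes above 0 in lymph node, 0.867% reached such a p with a lower level in CIA, 1.41% had no overlap with CIA lower and 2.32% with CIA higher. Among the 5081 genes over the filter, which left Icam2 out, these shares were 2.56% and 2.78%. When Icam2 entered limma with every gene above 0, its difference was -2.38 ± 0.74 (SE) with an unadjusted p of 0.00191 and an adjusted p of 0.770 (0.336 to 1 over the 7 settings in which it passed the filter), so it was not called among all genes. This is 1 of 4 exact tests made on the 8 genes.

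The lymph node libraries all lacked most rare genes, and the 5th percentile of the listed genes was 5.31 to 11.4 UPM in the CIA mice and 10.7 to 12.9 UPM in the healthy mice, below each healthy Icam2 level. Of 1752 genes above 0 in every healthy mouse with a healthy mean within 1.5 times that of Icam2, 258 were at 0 in at least 1 CIA mouse and 3 in every CIA mouse. Over all genes, 6 were above 0 in every healthy mouse and at 0 in every CIA mouse, Icam2 among them, and 62 showed the reverse. With zeros set to the 5th percentile, a setting added after seeing the data, the difference was -1.45. These percentiles lie below each healthy level, so the groups stay apart and the exact permutation p was bound to stay at 0.0286. Within the libraries of suffix 2CIA, also added after seeing the data, the difference was -2.48 between 2 healthy and 3 CIA mice, where the smallest exact p is 0.100. T cell markers summed to 2131 to 4548 UPM in healthy and 2022 to 3587 UPM in CIA lymph node libraries, and B cell markers to 566 to 1361 and 543 to 1602 UPM. Platelet markers were at 0 to 41.8 UPM in healthy and at 0 in CIA libraries, and erythroid markers at 95.3 to 140488 UPM in healthy and at 128 to 646 UPM in CIA libraries. Haemoglobin genes made up 14.6% of units in H7 and 3.57% in 1 library of H4. With totals that leave out haemoglobin genes the Icam2 difference was -2.44, and the part of platelet or red cell RNA in it was otherwise not tested. Cdh5, Kdr, Cldn5, Selp, Vcam1 and Fabp4 were at 0 in lymph node of all 7 mice.

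**Figure D5:**
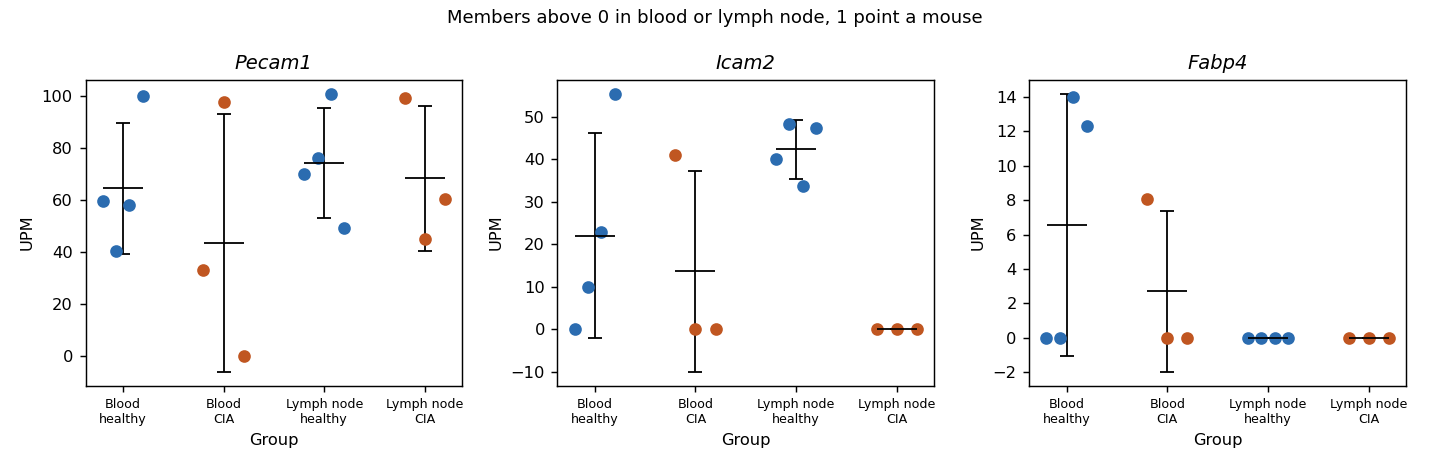
Pecam1, Icam2 and Fabp4 in UPM in blood and lymph node, 1 point a mouse (blue, 4 healthy mice; orange, 3 CIA mice), with the mean and SD as bars. The states overlap for Pecam1 in both organs and for Icam2 and Fabp4 in blood, while Icam2 in lymph node is at 33.7 to 48.3 UPM in healthy mice and at 0 in the CIA mice.

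In healthy mice, lymph node and blood of the same 4 animals were compared. The log2 difference, lymph node minus blood, was 0.20 ± 0.49 (SE, limma adjusted p = 0.857) for Pecam1 and 1.02 ± 0.67 (adjusted p = 0.412) for Icam2, beside a median of 0.41 over all genes. Limma called 0 of these 2 genes, against 0.0399% of 5015 genes (2 genes, Gzma and Il1b, both lower in lymph node and named after their values were seen) and 954 at an unadjusted p under 0.05. The direction of Pecam1 turned when totals left out haemoglobin genes (-0.13), which made up 3.75% to 58.8% of units in blood. Fabp4, at 0 in lymph node, differed by -0.61 (exact p = 0.429). For the interaction of organ and state, Pecam1 had a difference of 0.87 ± 0.97 (SE, limma adjusted p = 0.883) and 0 of 4810 genes were called (0%), with 376 at an unadjusted p under 0.05. Without a filter the interaction of Icam2 was -1.81 (adjusted p = 0.786), so its CIA difference was not shown to differ between lymph node and blood.

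The other organs had 1 mouse a state, and their values are given without a test as CIA minus healthy on the log2(UPM + 10) scale. In the joint, with the 2 libraries of S1 added up, Pecam1 was 2.07 times as high in S1 as in H3 (177 against 85.4 UPM, 0.97), Cdh5 differed by 0.13 and Cldn5 by 0.39. Kdr was at 34.7 UPM in S1 and 0 in H3. Selp was 2.76 times as high in H3 (144 against 52.0 UPM, -1.31), while Icam2 (-0.02), Vcam1 (-0.19) and Fabp4 (-0.53) were closer. One of the 8 genes lay more than 1 log2 unit higher and 1 lower in S1, where 16.4% of 16573 genes lay as far higher and 12.4% as far lower. The joint values of S1 rested on its 2CIA library, since in the CIA library alone the difference was -3.25 for Pecam1, -3.11 for Cdh5, -1.89 for Cldn5 and -0.26 for Selp (118 UPM in S1). In that library it was -3.83 for Fabp4 (130 UPM in S1 against 1979 UPM in H3), and -2.3 for Vcam1 and -1.25 for Icam2, both at 0 in S1. With each distinct profile counted once, Cdh5 (-0.35) and Cldn5 (-0.12) turned direction, Selp was 5.17 times as high in H3 (227 against 43.9 UPM), and the differences were 0.47 for Pecam1, -0.50 for Icam2 (16.9 UPM in H3 and 8.95 UPM in S1), -0.80 for Vcam1 and -0.97 for Fabp4. The summed neutrophil markers were at 51151 UPM in H3 and at 78423 and 120816 UPM in the 2 libraries of S1.

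In muscle, 4 genes lay more than 1 log2 unit higher in S1 and 1 lower, where 35.3% and 33.8% of 10706 genes did. Fabp4 was 10.5 times as high in S1 (3314 against 315 UPM), Pecam1 was at 106 against 44.7 UPM, and Cdh5 and Cldn5 were at 0 in H6. With each distinct profile counted once, Pecam1 was at 70.5 against 59.7 UPM (0.21), no longer past 1 log2 unit, and the Vcam1 difference went from 0.39 to 1.13. Icam2 was at 22.2 UPM in H6 and 0 in S1. The muscle library of H6 lacked most muscle markers, as given above, and the endothelial list summed to 90.6 UPM there and 948 UPM in S1, so the tissue held by the libraries and the state cannot be told apart. In skin, 5 genes lay more than 1 log2 unit lower in S1 and 0 higher, where 15.6% and 14.9% of 13963 genes did. Pecam1, Cdh5, Cldn5 and Selp were above 0 in H6 and at 0 in S1, and Fabp4 was at 231 against 85.2 UPM, while Vcam1 was at 42.7 UPM in H6 and 71.2 UPM in S1. The endothelial list summed to 125 UPM in skin of H6 and 63.4 UPM in skin of S1, and fibroblast markers to 4385 and 16890 UPM. The Vcam1 difference in skin turned from 0.62 to -0.54 when each distinct profile counted once, that of Fabp4 went from -1.34 to -2.07, and that of Cldn5 from -1.03 to -0.77, no longer past 1 log2 unit.

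In lung, Vcam1 was listed in S1 and not in H6, and Fabp4 differed by -0.58, where 22.6% of 8071 genes lay more than 1 log2 unit higher and 42.8% as far lower. The lung of S1 listed 2 of 5 epithelial lung genes at 2372 UPM, against 5 of 5 at 22096 UPM in H6, and neutrophil markers were at 16929 UPM in S1 and 496 UPM in H6, so the cells held by the libraries and the state cannot be told apart. In spleen, Pecam1 was 2.87 times as high in H6 as in S1 (-1.28), the 1 gene of the 8 past 1 log2 unit, where 16.7% of 15126 genes lay as far lower and 16.4% as far higher. Icam2 there was at 28.4 UPM in H6 and 35 UPM in S1, a difference that turned to -0.23 with distinct profiles. Vcam1 there was 6.98 times as high in H6 (12.1 against 1.73 UPM, -0.91), and with distinct profiles it passed 1 log2 unit, at 29.9 against 2.28 UPM (-1.70). In thymus, Icam2 was 2.86 times as high in H6 (63.3 against 22.1 UPM), where 10.3% of 11834 genes lay more than 1 log2 unit lower and 10.5% higher, and Pecam1 differed by 0.27. The spleen of S1 held 88873 UPM of neutrophil markers and that of H6 3766 UPM.

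The rest of each pathway was described from lists of named genes. Of the 12 endothelial markers, 0 passed the filter in any of the 4 fits, so none was tested. Flt1, a further VEGF receptor, was at 141 UPM in the joint of H3, 104 UPM in the 2CIA joint library of S1, 161 UPM in muscle of S1 and 58.6 UPM in lung of H6. Plvap, which forms the diaphragms of fenestrated capillaries, was at 148 and 161 UPM in the same 2 joint libraries and at 0 in both muscle and both lung libraries. Rbp7, a retinol carrier of capillaries, followed Fabp4 to 1118 UPM in muscle of S1, with 159 and 112 UPM in the joints of H3 and S1 (2CIA). Egfl7, a matrix protein secreted by endothelial cells, was at 191 UPM in muscle of S1 and 87.9 UPM in lung of H6. Its mean over the joint, lung, muscle and skin samples was 71.1 UPM. Vegfa, the ligand of Kdr and Flt1, was at 110 UPM in the joint of H3 and at 115 and 171 UPM in the 2 joint libraries of S1.

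In the fits, limma tested 1 of 11 growth factor receptors, S1pr1, a receptor for sphingosine 1-phosphate that guides lymphocytes out of lymphoid organs. It differed by -1.39 in blood (adjusted p = 0.561) and by -0.40 in lymph node (adjusted p = 0.999). Icam1, a further integrin ligand, differed by -2.14 in blood (adjusted p = 0.538) and by -0.21 in lymph node (adjusted p = 0.999). Of 10 leukocyte partners, the selectin ligands and integrins that bind these proteins, 8 were tested in blood and 9 in lymph node, and 0 were called in either direction, with a median of 0.22 in blood and -0.31 in lymph node. Among them, the integrin chain Itgb2, a partner of Icam1 and Icam2, differed by 0.90 in blood (adjusted p = 0.853) and by -1.01 in lymph node (adjusted p = 0.999). Of 13 endothelial transcription factors, 5 were tested in each organ and 0 were called, with medians of -0.75 and -0.03, and Klf2, induced by flow in vessels and expressed in resting T cells, differed by -1.27 and -1.24. Lymphatic, platelet, adipocyte and fibroblast markers had 0 genes above the filter in both organs. In the joint the lymphatic markers summed to 238 UPM in H3 and to 108 and 276 UPM in the 2 libraries of S1, mostly from Pdpn, a surface protein also made by fibroblasts, at 186, 98.7 and 276 UPM.

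Genes of like pattern were sought by Pearson's r of log2(UPM + 10) with the sum of Pecam1, Cdh5, Kdr and Cldn5 over 26 mouse and organ samples, which share libraries, depth and mice. The sum was highest in the joint of S1 (334 UPM), the joint of H3 (189 UPM) and muscle of S1 (187 UPM) and above 0 in 22 samples. Of the 5417 genes whose mean reached 25 UPM, Pecam1 led with r = 0.98, as a part of the sum. Next came Tuba1a (0.65), Gm5620 (0.64), Atp6v0d1 and Erp29 (0.63 each), Sptan1 (0.62), Stat6 (0.61), Utrn (0.59), Camta1 (0.58) and Ing1 (0.57), against a median of 0.04 over all genes. None of the 9 others is in an endothelial list. By Spearman's rho, 2 of the 10 were again among the first 10, Pecam1 itself and Gm5620. Fabp4 had r = 0.23, and the other 6 genes lay under the filter. The order of the genes by likeness thus rests largely on Pecam1, the widely listed gene of the 4.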

How the data were processed

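Reads were aligned by the authors to GRCm38 with STAR and counted with the Drop-seq tools, and the pilot cells were smoothed over 12 nearest neighbours (versions are not given in the labels). The deposited values are therefore a signal: whole-number sums that the authors did not scale, with column totals of 4373 to 36435, 4590 distinct profiles among 8282 columns and 0 unmapped columns. Rows without a symbol held 3.39% of units. Counting intervals were not derived, since barcodes share values through smoothing, and no doublets were called or removed here, so a barcode can hold markers of several cell types.

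Units were summed per mouse and organ and scaled to a total of 1000000. Genes whose mean reached 25 UPM were fitted as log2(UPM + 10) with limma 3.58.1 (R 4.3.3, mean-variance trend), with Benjamini-Hochberg adjustment over all genes and a threshold of 0.05. This scale understates changes of low genes. For endothelial genes below it, an exact permutation test over mice was used (Python 3.11.15). Positions are from GENCODE on GRCm38. Of each list, the 4 genes highest in digested organs and every called gene could be named, with the 10 most alike genes; some are not reported here. The genes and lists were chosen with earlier results of these data known. Lymph node and blood of a healthy number are from the same animal, and the deviations of the pairs correlated at 0.00, -0.17, 0.04 and 0.16.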

Additional observations from a re-analysis of the deposited data

How the results depend on the processing

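Where limma tested one of the 8 genes under an alternative, it did not call it: other scalings, a pseudocount of 1, no filter, no trend, single libraries, distinct profiles, 1 suffix, a mouse left out, or, for CIA in blood and in lymph node alone, a filter of 10 UPM (chosen after seeing the data). Most of these fits held Pecam1 and, between lymph node and blood, Icam2, and the other genes lay under the filter. With mouse as a replicate block, Pecam1 differed by 0.20 and Icam2 by 1.02 between lymph node and blood of healthy mice (adjusted p = 0.865 and 0.422), the interaction of Pecam1 was 1.39, and the block changed no call of these genes.

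Values that turned direction did so without a call, and the cause was not tested. For Pecam1 in blood the difference was 0.44 with suffix 2CIA alone. For Pecam1 in lymph node it was 0.28 with distinct profiles, 0.34 with suffix 2CIA alone, 0.02 without H6 and 0.10 without S2. Between lymph node and blood Pecam1 was at -0.10 with trimmed-mean scaling, -0.078 with median-of-ratios scaling and -0.13 without haemoglobin genes, and its interaction was -0.10 with suffix 2CIA alone and -0.007 without S7. In blood, Icam2 was at 0.60 and Fabp4 at 0.79 with zeros at the 5th percentile, and at 0.78 and 0.29 with suffix 2CIA alone. For these 2 genes both settings were added after seeing the data. With a mouse left out, Pecam1 lay between -1.79 and -0.074 in blood, -0.398 and 0.099 in lymph node, 0.004 and 0.56 between the organs and -0.007 and 1.66 for the interaction.

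The 1 exact test under 0.05, Icam2 in lymph node, became 0 with suffix 2CIA alone and with any 1 of the 7 lymph node mice left out (0 in each case), where the design allows no p under 0.0667. Its difference stayed between -2.46 and -2.32 when a mouse was left out. Barcodes with endothelial markers made up 7.11% with at least 2 markers, 2.62% with at least 5 and 3.53% of distinct profiles. By Spearman's rho 2 of 10 like-pattern genes were shared, Pecam1, a part of the sum, among them. Zeros bound no level where the rarest genes were missing, as they were from 19 libraries, blood of S6 and S7, the joint of H3 and muscle of H6 among them.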
